A study of Rattus norvegicus with 4 samples.

Results

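Cyclins, cyclin-dependent kinases and the mitotic exit gene Cdc23 were examined in the livers of rats killed 12 h after ligation of the bile duct. The members were all probes whose single gene symbol in the array's probe table begins with Ccna, Ccnb, Ccnd, Ccne or Ccng, begins with Cdk followed by a digit or n, or is Cdc23. This gave 32 of the 1936 probes on the array, for 13 of the 958 genes with a single-symbol probe. Of these genes 5 had 1 probe and 8 had several, and each probe was kept apart. None of the 32 probes lay at a control position, so all were tested.

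Male Sprague-Dawley rats of 250 to 300 g had the common bile duct ligated, or only exposed (sham), and all took food and water freely afterwards. The labels name no transgene or drug, and no age was found in them. RNA of the right lateral liver lobe was mixed from 3 rats per group, so each group is a pool of animals and no value belongs to 1 rat. Both pools were hybridised together, in different dyes, on each of 4 two-colour cDNA arrays. Arrays 1 and 3 held the ligation pool in Cy5, and on arrays 2 and 4 it was in Cy3. Nothing in the labels says that the arrays used separate pools, and the p-values then reflect no more than array-to-array spread, which may be technical. The value of a probe is a log ratio, read here as log2 of ligation over sham. The base is not stated, and the direction is likely from the order of the channels but is not stated either. A ratio gives no level, so the liver label could not be set against marker levels, and in a pool fewer cells of a type and less RNA per cell cannot be told apart.

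Cyclins switch on cyclin-dependent kinases, which drive a cell from rest through DNA synthesis and into division. D-type cyclins with Cdk4 or Cdk6 answer growth signals and act first, cyclin E acts at the entry to DNA synthesis, and cyclins A and B with Cdk1 act up to mitosis. The anaphase-promoting complex, of which Cdc23 is a subunit, then destroys cyclin B and lets the cell leave mitosis. Most hepatocytes of an adult liver rest outside this cycle and can enter it again after injury or loss of tissue.

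In the ligated pool, 3 member probes were higher, 4 were lower and 25 did not pass the test. The higher probes were the single probe of Ccnd1 and 1 probe each of Ccng1 and Cdc23. The lower probes were 2 of Cdk1 and 1 each of Cdc23 and Cdk6. Probes of Cdc23, Cdk1, Cdk6 and Ccng1 did not share 1 call, and Cdc23 had 1 probe in each direction. The other 4 genes with several probes, Ccnb1, Ccnd2, Ccne1 and Cdk16, had no called probe. Calls were made at a Benjamini-Hochberg adjusted p under 0.05 in limma, in a fit of a ligation term and a dye term to all 1648 probes outside control positions. The 7 called members are 21.9% of 32, against 27.9% of all tested probes. By direction, 9.38% of members were higher against 11.8% of all probes, and 12.5% were lower against 16.1%. The share of members called was thus no larger than the background. The excess of lower over higher calls among all probes depended on the centring, whose medians included the control positions. With these left out of the centring, 226 probes were higher and 226 lower, in place of 194 and 265. The median ligation term was -0.01 (-0.00946) over the members and -0.01 (-0.0106) over all tested probes. The median standard error (SE) of a member was 0.08 (0.0819) on the log2 scale, and the number of arrays limits this precision. Ratios are given after subtracting an array's own median unless said otherwise.

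At least 1.5-fold and called were 3 members (9.38%), against 8.01% of all tested probes. On all 4 arrays 4 members had 1 sign (12.5%), against 12.1%. Neither share differs much from the background.

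**Figure D1:**
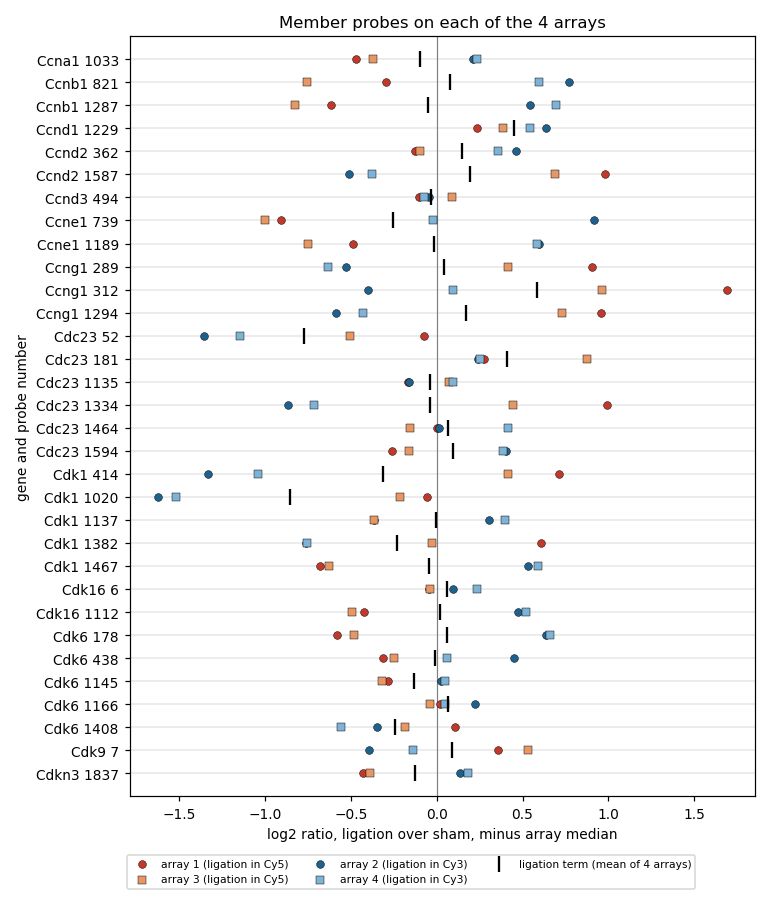
Log2 ratio of ligation over sham, minus the array median (horizontal axis), of each of the 32 member probes (rows) on the 4 arrays (points), with the mean of the arrays as a bar. Only 4 rows have all points on 1 side of 0, namely Ccnd1 1229, Cdc23 52, Cdc23 181 and Cdk1 1020, and in most other rows the Cy5 arrays and the Cy3 arrays lie on opposite sides.

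Among the members that act before DNA synthesis, cyclin D1 was higher at its single probe. Probe 1229 of Ccnd1, the cyclin induced by growth factors, was at 0.24, 0.63, 0.39 and 0.54 on arrays 1 to 4. All 4 arrays lay above 0, and the lowest was an array with ligation in Cy5. The ligation term was 0.45 ± 0.08 (SE, 4 arrays), which is 1.37-fold higher (limma adjusted p = 0.000581). The call held without any 1 array, with values from 0.41 to 0.49. It rests on the zero point, since without centring the term was 0.07 (0.0692, adjusted p = 0.542).

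The other D-type cyclins did not pass. Ccnd2, the cyclin D2 gene, had ligation terms of 0.15 ± 0.08 and 0.20 ± 0.08 at probes 362 and 1587, and its probes ran opposite ways between dyes. Probe 1587 was at 0.98 and 0.69 on the Cy5 arrays and at -0.51 and -0.38 on the Cy3 arrays, while probe 362 was at -0.13 and -0.10 (-0.0977), then 0.46 and 0.36. Without array 3, probe 1587 was called at 0.27 (adjusted p = 0.0286). Ccnd3, the cyclin D3 gene, was close to 0 on every array, at -0.10, -0.05, 0.09 and -0.08, with a term of -0.03 ± 0.08 and a 95% interval from -0.21 to 0.14. The difference of Ccnd1 from Ccnd3 within an array, in which the array median cancels, was 0.34, 0.68, 0.30 and 0.62 on arrays 1 to 4, so Ccnd1 lay above Ccnd3 on each of them. The probes lie in different print blocks, and with each block centred on its own median their terms were 0.44 and 0.01 (0.00901).

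Cyclin E1, the partner of Cdk2 at the start of DNA synthesis, did not pass at either probe of Ccne1. Probe 739 was at -0.91, 0.91, -1.001 and -0.02, and the Cy3 arrays 2 and 4 disagreed. Its term was -0.25 ± 0.12 (adjusted p = 0.143), and it became -0.49 without array 2 (adjusted p = 0.000758) and -0.02 without array 4 (adjusted p = 0.975). Probe 1189 was at -0.02 ± 0.08. Of the 5 probes of Cdk6, a kinase partner of D-type cyclins, 1 was lower and 4 did not pass. Probe 1408 was at 0.11, -0.35, -0.18 and -0.56, so that array 1 lay on the other side of 0. Its term was -0.24 ± 0.09 (adjusted p = 0.0452). Leaving out array 2 ended the call (-0.30, adjusted p = 0.0712), as did leaving out array 3 (-0.17, adjusted p = 0.188) or array 4 (-0.19, adjusted p = 0.343). The call was kept under 6 of 16 alternatives. The fits without array 2 or 4 gave every probe the same SE of 0.12. A call can therefore be lost there although the term did not shrink, as at probe 1408 without array 2. The remaining Cdk6 probes had terms from -0.13 to 0.06.

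Cdk1, the kinase that starts mitosis, was lower at 2 of its 5 probes and did not pass at 3. Probe 1020 was at -0.06, -1.62, -0.21 and -1.52 on arrays 1 to 4. It lay below 0 on every array, close to it on the Cy5 arrays and far below it on the Cy3 arrays. Its term was -0.85 ± 0.08, which is 1.81-fold lower (adjusted p = 1.85e-06), the lowest of all members. Probe 414 was at 0.71, -1.33, 0.41 and -1.04, above 0 with ligation in Cy5 and below it with ligation in Cy3, with a term of -0.31 ± 0.09 (adjusted p = 0.0145). Probe 414 was not called when array 2 was left out (-0.24, adjusted p = 0.182), nor when array 3 was (-0.24, adjusted p = 0.0702).

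Of the Cdk1 probes that did not pass, probe 1382 was at 0.61, -0.76, -0.03 and -0.75, with a term of -0.23 ± 0.10 (adjusted p = 0.104). Without array 1 it was called, at -0.39 (adjusted p = 0.00241), and without array 3 it was at -0.07 (adjusted p = 0.609). Probes 1137 and 1467 were at -0.01 (-0.00641) ± 0.08 and -0.05 ± 0.08, and both were below 0 on the Cy5 arrays and above it on the Cy3 arrays, opposite to probe 414. Averaged over its 5 probes, Cdk1 was at 0.04, -0.57, -0.16 and -0.46, with a mean of -0.29 ± 0.07. The gene average thus lies between a probe that was 1.81-fold lower and probes near 0.

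The other mitotic members did not pass. Cyclin B1, the partner of Cdk1 at mitosis, had terms of 0.08 ± 0.09 and -0.05 ± 0.08 at its 2 probes, and both were below 0 on the Cy5 arrays and above it on the Cy3 arrays. Probe 821 of Ccnb1 was at -0.29, 0.77, -0.76 and 0.60, and its 95% interval ran from -0.12 to 0.27. Ccna1, the cyclin A gene best known from germ cells, was at -0.47, 0.21, -0.37 and 0.23, with a term of -0.10 ± 0.08. Cdkn3, a phosphatase that acts on cyclin-dependent kinases, was at -0.43, 0.14, -0.39 and 0.18, with a term of -0.12 ± 0.08. Genes measured by these probes could have differed between the pools by up to the bounds of their intervals without being detected. The intervals reflect array-to-array spread at this zero point, so they do not bound a difference between rats.

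Cdc23 had the widest range of probes among the members, at 1.18 (read as Cy5 over Cy3 it was 1.06, and Cdk1 was wider at 1.48). Probe 52 was at -0.07, -1.35, -0.51 and -1.15, below 0 on every array, with a term of -0.77 ± 0.09, which is 1.71-fold lower (adjusted p = 1.52e-05). Probe 181 was at 0.28, 0.24, 0.88 and 0.26, above 0 on every array, with a term of 0.41 ± 0.10 (adjusted p = 0.00471). Array 3 stood far above the other three at probe 181, and without it the term was 0.26 (adjusted p = 0.029). The other 4 probes had terms from -0.04 to 0.09, and none passed. Without centring probe 52 stayed called, at -1.15, while probe 181 was at 0.03 (adjusted p = 0.842). Averaged over its 6 probes, Cdc23 was at -0.05 ± 0.07, a value that none of its called probes resembled.

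Ccng1, cyclin G1, a target of the tumour suppressor p53 that is not known to drive the cycle through a kinase partner in the way of cyclins D, E, A and B, was higher at 1 of 3 probes. Probe 312 was at 1.69, -0.40, 0.96 and 0.10 (0.0957), and array 2 lay on the other side of 0. Its term was 0.59 ± 0.11, which is 1.502-fold higher (adjusted p = 0.0013), and it ranged from 0.41 to 0.77 without any 1 array. Probe 1294 was at 0.96, -0.59, 0.73 and -0.43, and probe 289 at 0.91, -0.53, 0.42 and -0.63. Their terms of 0.17 ± 0.08 and 0.04 ± 0.09 did not pass. All 3 probes were above 0 with ligation in Cy5 on both arrays. Without centring the term of probe 312 was 0.21 (adjusted p = 0.0948) and the call was lost.

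Of the kinases with roles mainly outside the division cycle, Cdk9, which releases RNA polymerase II into elongation, was at 0.09 ± 0.08. Cdk16, a kinase of the PCTAIRE group, was at 0.06 ± 0.08 and 0.02 (0.0175) ± 0.08 at its 2 probes. In all, 8 of the 13 genes had no called probe, and their 12 probes had terms between -0.25 and 0.20. With probes averaged per gene before the fit, 3 of 13 genes were called, Ccnd1 and Ccng1 higher and Cdk1 lower. That is 23.1%, against 28.6% of the 1174 features in that fit.

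**Figure D2:**
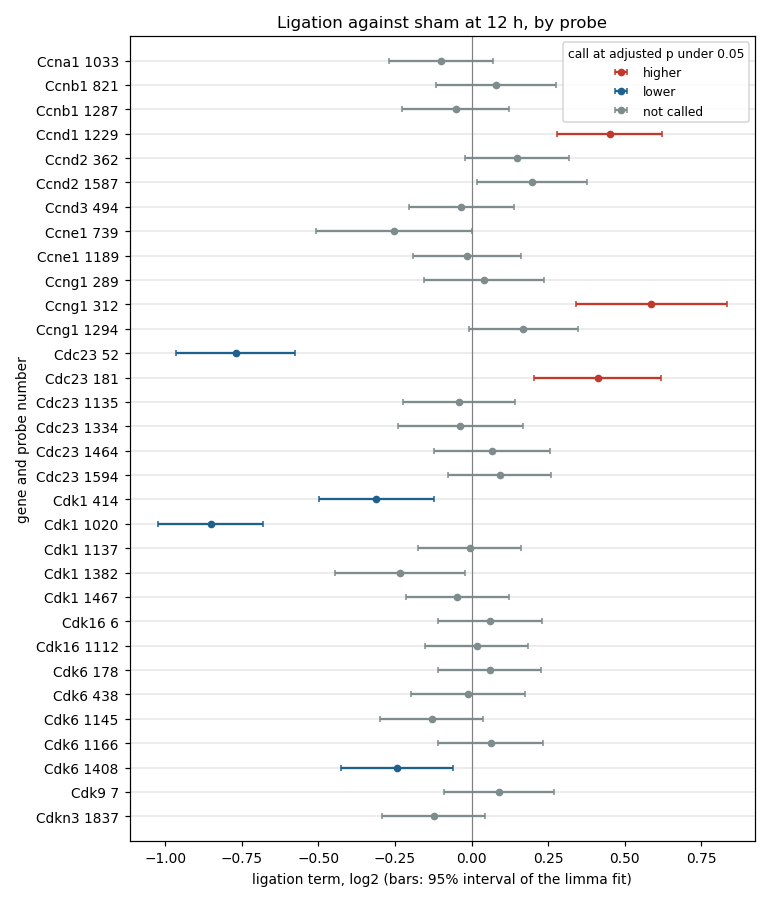
Ligation term of each member probe in log2 units (horizontal axis) with its 95% interval from the limma fit, coloured by call. The 7 called probes lie between -0.85 (Cdk1 1020) and 0.59 (Ccng1 312), and the intervals of the other 25 lie between -0.51 and 0.38.

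Because probes of 1 gene differed, the 42 pairs of member probes that share a gene were compared within each array, where the array median cancels. In a limma fit of all 699 such pairs on the array, 18 member pairs differed (42.9%), against 23.3% of all pairs. These were 9 of 15 pairs of Cdc23, 5 of 10 of Cdk1, 2 of 3 of Ccng1 and 2 of 10 of Cdk6. Read as Cy5 over Cy3, 28 member pairs differed (66.7%), against 51.1% of all pairs, with 12 of Cdc23, 7 of Cdk1 and 0 of Ccng1. In that reading the ligation term of a probe or pair is the dye term of the main fit. Pairs that share a probe are not independent, and Cdc23 and Cdk1 enter with many pairs each. The genes were also singled out because their probes were known to differ. The fit found no difference in variance between pairs and gave each the same SE of 0.12, so a pair whose arrays disagreed has no larger error. Without array 2 the fit called 62 of the 699 pairs and 9 of the 42, and without array 4 it called 53 and 8.

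Pairs that differed the same way on all 4 arrays were fewer. They were 8 of the 42 member pairs (19%), against 16.5% of all pairs, so the members' share was near that of the array. All 8 were called, and 10.4% of all pairs were both called and of 1 sign. Cdk1 probe 414 lay above probe 1020 by 0.77, 0.29, 0.63 and 0.47 on arrays 1 to 4, a mean of 0.54 ± 0.12 (adjusted p = 5.58e-05). Probe 1020 lay below probe 1382 on every array, with differences of -0.67, -0.86, -0.18 and -0.76. Ccng1 probe 289 lay below probe 312 on every array, with differences of -0.78, -0.13, -0.55 and -0.73, with a mean of -0.55 ± 0.12. Cdc23 probe 52 lay below probe 181 on every array, with differences of -0.35, -1.59, -1.38 and -1.40, a mean of -1.18 ± 0.12. In contrast, Cdk1 probe 1020 against probe 1137 was at 0.31, -1.93, 0.15 and -1.92, so the sign turned with the dye although the pair was called. By the range of their probes, Cdc23 (1.18) ranked 7, Cdk1 (0.85) ranked 13 and Ccng1 (0.55) ranked 34 among the 340 genes with several probes. The median range of those genes was 0.13. A range can widen with the number of probes, and Cdc23 had 6, Cdk1 had 5 and Ccng1 had 3. The ranks were not matched for that number. Read as Cy5 over Cy3 the order changed, with Cdk1 at 1.48 (rank 3), Cdc23 at 1.06 (rank 41) and Ccng1 at 0.12 (rank 266), against a median of 0.32.

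**Figure D3:**
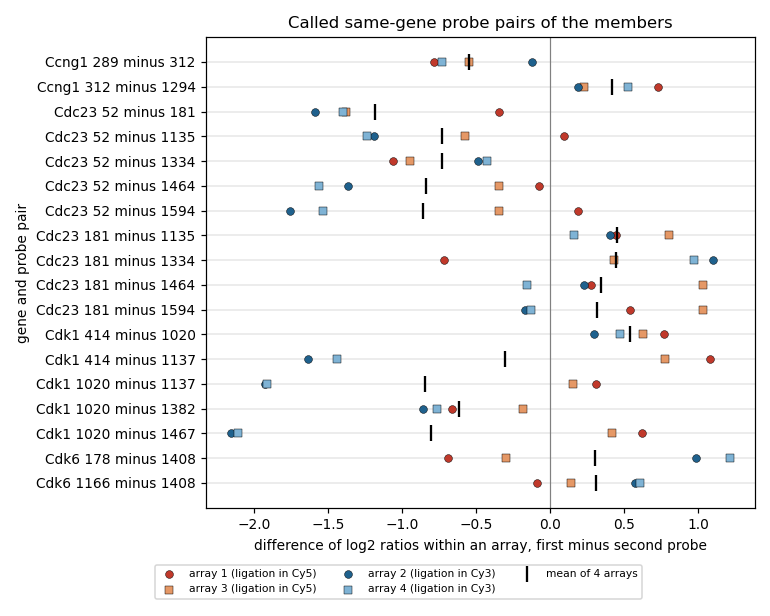
Difference in log2 ratio between the probes of a gene within an array, first minus second probe (horizontal axis), for the 18 called member pairs on each of the 4 arrays, with the mean as a bar. In 8 pairs all 4 points lie on 1 side of 0, and in 10 pairs they do not.

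Dye terms exceeded ligation terms at most member probes. The dye term, which is positive where a probe read higher with ligation in Cy5 than in Cy3 relative to the array median, was larger in size than the ligation term at 25 of 32 member probes (78.1%), against 80.5% of all probes. It passed at adjusted p under 0.05 at 24 of them (75%), against 81.7% of all probes. The sign of the dye term went with the calls. Of 13 member probes with a positive dye term 6 were called, and of 19 with a negative one 1 was called, Ccnd1 at -0.14. Over all tested probes, 44.1% with a positive and 5.97% with a negative dye term were called. The part of the dye in the calls was not tested.

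Before any centring, some member probes were nearly equal on the 4 arrays and others followed the dye. The array medians of -1.26, 0.43, -0.96 and 0.26 were subtracted, which gives a probe with equal deposited values a positive dye term. Cdk1 probe 414, on both sides of 0 after centring, was deposited at -0.54, -0.90, -0.54 and -0.78. Cdk1 probe 1020 was deposited at -1.31, -1.20, -1.17 and -1.26, nearly equal on the 4 arrays, with a standard deviation (SD) of 0.07 (0.065), against 0.83 after centring. Ccng1 probe 1294 was deposited at -0.30, -0.16, -0.22 and -0.17 (SD 0.06, 0.0638), and Cdc23 probe 1334 at -0.26, -0.44, -0.51 and -0.46 (SD 0.11). Cdk1 probe 1137 was deposited at -1.62, 0.73, -1.32 and 0.66 instead, following the dye. The deposited SD was smaller than the centred SD at 9 of 32 member probes (28.1%), against 39.3% of all tested probes. These 9 had 1 sign on all 4 arrays as deposited and all had a positive dye term. They were 3 probes of Ccng1, 3 of Cdk1, 2 of Cdc23 and 1 of Ccnd2. Both called Cdk1 probes, Cdc23 probe 52 and Ccng1 probe 312 were among them, and Ccnd1 was not, at -1.02, 1.06, -0.57 and 0.81.

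**Figure D4:**
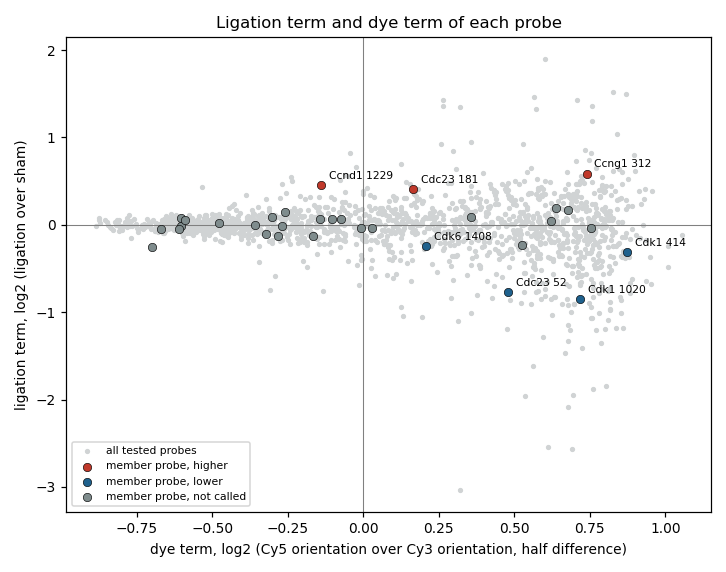
Ligation term (vertical axis, log2 of ligation over sham) against dye term (horizontal axis, log2) of all 1648 tested probes in grey and the 32 member probes in colour by call. The ligation terms spread widely at positive dye terms and lie near 0 at negative ones, and 6 of the 7 called members are on the right.

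The number of members called depended on the dye term and on the zero point. With no dye term, limma called 0 of 32 members (2 had an unadjusted p under 0.05) and 1 of 1648 probes. Without centring but with the dye term it called 28 members, all lower. The 4 lower calls of the main fit were kept there and the 3 higher calls were lost. With neither centring nor dye term, an alternative chosen after seeing the data, 3 of the lower calls were kept. These were Cdk1 probe 1020 (-1.23, adjusted p = 0.0107), Cdc23 probe 52 (-1.15, adjusted p = 0.0218) and Cdk1 probe 414 (-0.69, adjusted p = 0.0394). Read as Cy5 over Cy3 on every array, Cdk1 probe 1020 would be at 0.72, Cdc23 probe 52 at 0.48, Ccnd1 at -0.14 and Ccng1 probe 312 at 0.74. These values are the dye terms of the main fit.

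Other genes of the cycle were taken from 5 lists, of which 36 genes with 57 probes were on the array. Of these probes 4 were higher and 4 lower (14%), against 27.9% of all tested probes, and their median term was 0.01 (0.0133). Among partners and regulators of the kinases, 2 of 10 probes were lower and none higher. They were Cks1b, a small subunit bound to cyclin-dependent kinases, at -0.43 ± 0.08, and Cdc37, a chaperone partner that delivers kinases to Hsp90, at -0.41 ± 0.12. The 3 probes of the phosphatase Cdc25a lay between -0.12 and 0.14. Cks1b was at 0.44 and 0.25 on the Cy5 arrays and at -1.26 and -1.15 on the Cy3 arrays, with a dye term of 0.77. Cdc37 was at -0.51, -0.87, -0.41 and 0.14, and it was not called when array 1 (-0.39, adjusted p = 0.0679) or array 2 (-0.16, adjusted p = 0.486) was left out.

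None of 12 probes for the Rb protein, E2F targets and DNA synthesis passed in limma, and 1 had an unadjusted p under 0.05. Pcna, the sliding clamp of DNA polymerase, was at 0.20 ± 0.09 and 0.07 ± 0.08, and the helicase subunit Mcm4 lay between -0.08 and 0.10 at 5 probes. For mitosis, 1 of 12 probes was higher, a probe of Fzr1, an activator of the anaphase-promoting complex, at 0.24 ± 0.08. Its other 2 probes, at 0.06 and -0.08, did not pass. The call was lost without array 1, 2 or 4 (the value at 0.23, 0.28 and 0.20), and without centring it was at -0.14. Top2a, which untangles chromosomes before division, was at 0.03 and 0.07. Of 4 probes for p53 and growth arrest, Ddit3, a stress-induced regulator that can halt growth, was lower at -0.23 ± 0.08. Leaving out array 2 (-0.25), 3 (-0.20) or 4 (-0.21) ended that call. For Fzr1 and Ddit3 alike, the fits without array 2 or 4 used the common SE of 0.12. The growth arrest gene Gadd45a was at 0.03 and 0.06.

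Of 19 probes for growth signals upstream of the cyclins, 3 were higher and 1 lower. Both probes of Myc, a transcription factor that promotes cell growth, were above 0 on every array. Probe 305 was at 0.40, 0.60, 0.88 and 0.78, with a term of 0.66 ± 0.09, and probe 945 was at 0.56, 0.19, 0.68 and 0.43, with a term of 0.46 ± 0.08 (limma adjusted p = 7.19e-05 and 0.000573). The immediate-early gene Egr1 was at 0.44 ± 0.09. A probe of the growth factor receptor Egfr was lower, at -0.45 ± 0.08 and below 0 on each array, while its other probe was at -0.15 ± 0.08. Without centring the Myc probes were at 0.28 (adjusted p = 0.0621) and 0.08 (adjusted p = 0.443), Egr1 was at 0.06, and none was called. Without array 2 the lists held 5 calls in place of 8.

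**Figure D5:**
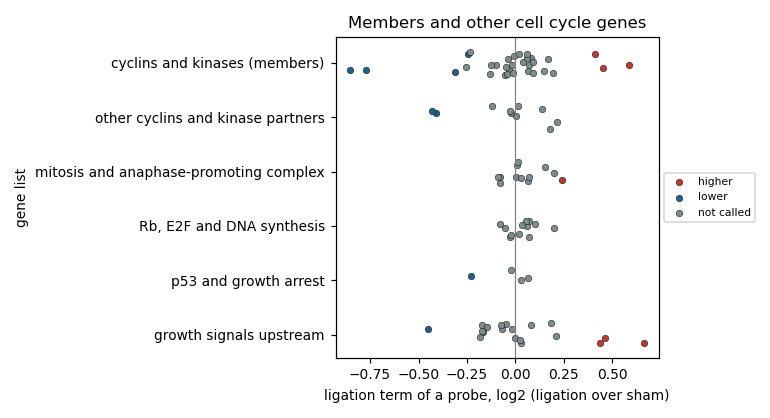
Ligation term in log2 units (horizontal axis) of each probe of the members and of the 5 lists of other cell cycle genes (rows, points spread vertically for sight), coloured by call. The 12 probes for DNA synthesis lie between -0.08 and 0.20 and none is called, while the members reach from -0.85 to 0.59.

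Of 22 probes for cell type markers 6 were higher, 7 were lower and 9 did not pass, where 11.8% of all tested probes were higher and 16.1% lower. By cell type, 4 of 6 leukocyte and Kupffer cell probes were lower (range -0.57 to -0.01, the last -0.00828), 2 of 4 endothelial probes were lower, and 4 of 5 hepatocyte probes were higher (range of all 5, 0.03 to 0.38). Among 3 cholangiocyte probes 1 was higher, Anxa5 at 0.95, while Spp1 (0.14) and Ggt1 (0.02) did not pass. Of 4 stellate cell probes 1 was higher and 1 lower. Without centring 0 of 5 hepatocyte probes were higher and 1 was lower, while 6 of 6 leukocyte and Kupffer cell probes were lower. None of the 4 called hepatocyte probes had 1 sign on all 4 arrays. With control positions left out of the centring, 2 of the 6 leukocyte and Kupffer cell probes were lower. The lower probes of that list in the main fit were both probes of Ccl5 and those of Tnf and Cd53. Ccl5 and Tnf encode secreted signals. Read as Cy5 over Cy3, 3 of these 6 probes were higher and 2 lower, and 4 of 5 hepatocyte probes were higher and 1 lower. Ratios cannot be summed into a level per group, and the part of these cell types in the members' values was not tested.

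By the root mean square difference over the 4 centred array values, with probes of a gene averaged, the genes most like Ccnd1 among 957 others were Dusp5 (0.09, 0.0945), Hsd11b1 (0.13) and Aktip (0.15). For Ccng1 they were Mmp14, Cd47 and Eif2ak1 (0.06 each, 0.0559, 0.0562 and 0.0645). For Cdk1 they were Rab43 (0.06, 0.0559), Cd53 (0.07, 0.0674) and Por (0.08, 0.0795), and for Cdc23 Zfp354a (0.02, 0.0216), Aifm1 (0.06, 0.0635) and Dync1i2 (0.07, 0.0749). Dusp5, a phosphatase that acts on the kinase ERK, was at 0.29, 0.63, 0.57 and 0.54, beside 0.24, 0.63, 0.39 and 0.54 for Ccnd1. With 4 values a gene, and dye terms larger than ligation terms at most probes, such a likeness describes these arrays only.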

How the data were processed

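The authors deposited 1 log ratio per probe and array, read here as log2. Its base, scanning, background correction and normalization are not stated in the labels or the table. Column medians were -1.26, 0.43, -0.96 and 0.26, so the deposited values had not been centred. Arrays of the same dye order correlated at Pearson r = 0.93 and 0.94 across all probes, which are not independent, and arrays of opposite order at -0.45 to -0.28. The ratio was read as channel 2 (ligation) over channel 1 on every array, from the order in the labels.

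Of 1936 probes, 1432 had 1 symbol, 19 several and 485 none in the platform's probe table. All 32 members matched a RefSeq gene number of the same symbol. The 288 spots at 18 positions unnamed in each of 16 blocks were taken as control positions and left out of the test. They still counted towards the zero point, since the median subtracted from an array was taken over all 1936 probes. With them left out of the centring too, 3 members were higher and 3 lower. Cdk6 probe 1408 lost its call there (-0.21, limma adjusted p = 0.089). The fit was limma 3.58.1 in R 4.3.3 with ligation and dye terms, eBayes variances (2 residual and 11.7 prior degrees of freedom) and Benjamini-Hochberg adjustment over 1648 probes. Probe pairs of a gene were fitted likewise. Both fits were tested on simulated data in 20 runs. For ligation against sham over 1648 probes, limma recovered 88.4% of probes set to 1.3-fold and 99.7% of those set to 1.5-fold. Over 699 pairs it recovered 97.5% of differences above 0.5 log2 but 57.7% of smaller ones. The simulation's pass criteria were loosened after earlier ones were not met, the fits being left as they were, so it is a weak check, of small pair differences above all. No coordinates or probe sequences are printed, and intensities were not used here.

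The named genes were every member, with the called genes and at least 1 other of each list. Members and lists were chosen with earlier results of these data known.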

Additional observations from a re-analysis of the deposited data

Results flagged for a closer look

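Cdc23 probe 181 was at 0.88 (0.876) on array 3, against 0.24 to 0.28 on the other arrays. The gap was 0.94 of the range of the 4 arrays, above Dixon's 95% critical value of 0.829 for 4 values. Of 32 member probes examined this was the 1 that stood apart. A rate of about 5% by chance holds for 4 values of 1 normal distribution. The dye term passed at 24 of the 32, which sets their Cy5 and Cy3 arrays apart, so that rate does not carry over. Without array 3 the ligation term was 0.26 in place of 0.41.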

How the results depend on the processing

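The call of Cdk1 probe 1020 and that of Cdc23 probe 52 each kept direction and side of the threshold under 14 of 16 alternatives. The exceptions for both were the fit with no dye term and the reading as Cy5 over Cy3. Ccng1 probe 312 kept its call under 13, Ccnd1 under 12, Cdc23 probe 181 under 11, Cdk1 probe 414 under 10 and Cdk6 probe 1408 under 6. The 3 alternatives chosen after seeing the data were centring on probes whose dye term lay in its upper quartile, subtracting a curve of the ligation term on the dye term, and dropping centring and the dye term together. The first called 5 members, with Cdc23 probe 181 at 0.48 (adjusted p = 0.0514) and Cdk1 probe 414 at -0.24 (0.0697) among those lost, and split all calls into 205 higher and 187 lower in place of 194 and 265. It gained Ccnd2 probe 1587 as higher, at 0.27 (limma adjusted p = 0.04). The curve left 6 members called, 4 higher and 2 lower. It gained the same Ccnd2 probe at 0.24 (0.0456) and lost Cdk1 probe 414 (-0.24, 0.0566) and Cdk6 probe 1408 (-0.24, 0.0508).

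Called members numbered 7, then 28 without centring, 24 read as Cy5 over Cy3, 0 with no dye term (2 at an unadjusted p under 0.05), 3 with neither (the lower calls of Cdk1 probes 414 and 1020 and Cdc23 probe 52) and 3 genes with probes averaged. All probes called numbered 459, then 1361 (31 higher, 1330 lower), 1346 (790 and 556), 1 and 207 (9 and 198). The cycle lists had 8 calls, then 47, 44, 0 (1 at an unadjusted p under 0.05) and 2. Same-gene pairs numbered 163, then 357 read as Cy5 over Cy3 and 5 with no dye term. The array median cancels in the pairs. Without 1 array, the counts ran from 6 to 8 for members, 357 to 491 for all probes, 5 to 10 for the lists and 53 to 182 for pairs. The fits without array 2 or 4 gave every probe the same SE, 0.12.

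Without centring, which moves the median of all probes by -0.38, values that turned negative and were called were Cdk16 probe 6 at -0.32 and 1112 at -0.36, Cdk9 at -0.29, Cdk6 probe 178 at -0.32 and 1166 at -0.32, Ccng1 probe 289 at -0.34 and 1294 at -0.21, Ccnd2 probe 362 at -0.23, Ccnb1 probe 821 at -0.30, and Cdc23 probe 1464 at -0.31 and 1594 at -0.29. Fzr1 probe 1021 lost its call at -0.14, with or without the dye term. Read as Cy5 over Cy3, the sign turned for Cdc23 probe 52 (0.48), 1334 (0.75) and 1594 (-0.30), Cdk6 probe 178 (-0.59) and 1408 (0.21), Ccnd2 probe 362 (-0.26), Cdk1 probe 414 (0.87), 1020 (0.72) and 1382 (0.52), Ccnb1 probe 821 (-0.60), Cdk16 probe 1112 (-0.48), Ccnd1 (-0.14), Egr1 (-0.54), Myc probe 305 (-0.0253), Ddit3 (0.76), Egfr probe 1270 (0.23) and Cks1b (0.77). The sign also turned for Cdk16 probe 6 (-0.10), Ccnd3 (0.03), Cdk6 probe 1166 (-0.07) and Cdc23 probe 1464 (-0.14), none of them called in either reading. The cause was not tested. Each array holds both pools, so every value is already a ratio between the pools within an array. There is 1 group of arrays, and no further pairing was made. Signal over background is not known, and the number of arrays limits what could be detected.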
